A study of Arabidopsis thaliana with 17 samples.

Results

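Wild-type Arabidopsis thaliana of the accession Col-0 was profiled by RNA-seq after 24 h in 200 mM NaCl and at 0 h of the same treatment. The libraries were taken by their titles: 3 from Col-0 at 24 h and 2 from Col-0 at 0 h, 5 of the 17 libraries of the series. The plants were 14 days old, grown in hydroponic culture and labelled as seedlings. The other 12 libraries, 3 at each time from the mutant atdgcr14l-1 and 3 at each time from OE-6 (atdgcr14l-1 carrying 35S:AtDGCR14L, a transgene under the constitutive cauliflower mosaic virus 35S promoter), served to estimate the spread between libraries and for a comparison of the salt response between lines. Every group carries the salt label, and no salt-free 24 h library was analysed, so salt and the passing of 24 h cannot be told apart. Whether replicates are separate cultures is not in the labels, and p-values here rest only on library spread, which may be technical.

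High NaCl withdraws water from plant cells, loads them with sodium and chloride, and raises reactive oxygen. Plants answer with osmolytes, detoxification and transport, usually at the cost of growth, protein synthesis and chloroplast biogenesis. The abscisic acid and jasmonate pathways, anthocyanins, photosynthesis and the cell cycle are the best known parts of that answer, and the account here turns to families and pathways outside them.

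The Col-0 libraries held 54691615 to 55999717 counts each. Levels are given as CPM, the counts of a gene per 1000000 counts of its library after scaling by trimmed mean of M-values (TMM) factors, in library order, 3 values for 24 h and 2 for 0 h. CPM also scales with transcript length, so CPM of different genes are not compared as expression levels. Of 27655 genes in the files, 21282 had enough counts for the test. Spearman correlations over genes were 0.9925 to 0.9948 among the 24 h libraries, 0.9944 between the 0 h libraries, and 0.9244 to 0.9395 between times. At a Benjamini-Hochberg adjusted p under 0.05 (edgeR quasi-likelihood test), 5405 genes rose (25.4% of those tested) and 4548 fell (21.4%), 46.8% in all. Of these, 2424 rose at least 2-fold (11.4%) and 1464 fell at least 2-fold (6.88%). These shares are the background for every count below. For list medians the background is the median log2 fold change of all genes tested, 0.03. Of the calls, 3226 rises and 2689 falls held in every fit that left out 1 Col-0 library. With a 0 h library left out, the other is assumed to vary like the other groups. A gene below for which a fold change stands without a p had an adjusted p under 0.05 in the full fit and in each of those fits. A list count of 5 or more that moved by over 1.5 times in one of those fits is given with that library, and counts under 5 moved by at most 3. For every gene given with a value per library, the 24 h and 0 h groups did not overlap, apart from SCR, HK3 and AT4G40040. AtDGCR14L itself (AT3G07790), the gene altered in the other lines, had 74.2, 78.8 and 72.2 CPM at 24 h, against 59.9 and 55.7 CPM at 0 h (log2 fold change 0.38 ± 0.13, adjusted p = 0.0234, but adjusted p = 0.153 without Col-0 0 h replicate 2).

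Markers of root cell types were at or near 0 although the tissue is labelled seedling. Of 23 root markers, 18 stayed under 1 CPM in every Col-0 library. LRX1, EXPA18, RHD6, RSL4 and PLT1, of root hairs and the root stem cell niche, and the Casparian strip gene CASP5 had no count in any of the 5. A count of 0 allows up to 0.0519 to 0.0582 CPM in these libraries (3 counts). The summed root marker level was 40.5, 43.1 and 41.8 CPM at 24 h, against 43.6 and 46.9 CPM at 0 h, most of it from SCR (27.9, 27.8 and 30.4 CPM at 24 h, against 27.6 and 28.7 CPM at 0 h), which is also expressed in leaves. Guard cell, leaf organ and vascular markers were well covered. Summed vascular markers (16 genes) were 920.0, 1099 and 1130.4 CPM at 24 h, against 767 and 700.0 CPM at 0 h. Summed guard cell and stomatal lineage markers (16 genes) were 189, 211 and 208 CPM at 24 h, against 259 and 246 CPM at 0 h, and summed shoot meristem and leaf organ markers (20 genes) were 210.0, 233 and 216 CPM at 24 h, against 267 and 280.4 CPM at 0 h. The vascular sum was thus higher in every 24 h library and the other 2 sums lower, and their part in the results was not tested. A change in bulk RNA cannot tell fewer cells of a type from less RNA per cell.

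Among called genes whose 24 h and 0 h libraries did not overlap, the 10 that gained the most CPM were 5 proteins of drought and cold protection, 2 jasmonate-linked enzymes and 3 of other function. LTI78 (also called RD29A), a hydrophilic protein long used as a marker of water stress, had 2258, 2638 and 2918 CPM at 24 h, against 230.0 and 107 CPM at 0 h (log2 fold change 3.95 ± 0.44, adjusted p = 7.85e-06). The dehydrin ERD10, which shields proteins and membranes on drying, had 1827, 1437 and 1699 CPM at 24 h, against 142 and 132 CPM at 0 h (log2 fold change 3.59 ± 0.29). COR15A, a chloroplast membrane protectant, had 1329, 1239 and 1035 CPM at 24 h, against 44.4 and 42.5 CPM at 0 h (log2 fold change 4.79 ± 0.56). KIN2 and COR47, of the same group, rose, with log2 fold changes of 2.56 ± 0.22 and 2.25 ± 0.27. LOX2, the chloroplast lipoxygenase of jasmonate synthesis, and CORI3, a cystine lyase, had log2 fold changes of 2.92 ± 0.24 and 5.06 ± 0.29. NIT1, a nitrilase, had 2938, 2069 and 2419 CPM at 24 h, against 830.5 and 857 CPM at 0 h (log2 fold change 1.55 ± 0.17, adjusted p = 7.54e-06). LTP4, a lipid transfer protein, was nearly at 0 before salt, and the call of the class III peroxidase PRXR1 was lost on leaving out 1 library (log2 fold change 0.64 ± 0.20, adjusted p = 0.0152, adjusted p = 0.109 without Col-0 0 h replicate 2).

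By the same rule, the 10 largest losses of CPM were 9 antenna proteins of light harvesting and RBCS3B, a small subunit of Rubisco. LHCA1, an antenna protein of photosystem I, had 2547, 2262 and 1885 CPM at 24 h, against 5298 and 5902 CPM at 0 h (log2 fold change -1.33 ± 0.18, adjusted p = 3.31e-05). LHB1B1, of the photosystem II antenna, had 1195, 1099.5 and 783 CPM at 24 h, against 4168 and 4350.3 CPM at 0 h (log2 fold change -2.05 ± 0.28). CAB1, the gene with the largest loss, had 18215, 17465 and 14339 CPM at 24 h, against 22819 and 24619.6 CPM at 0 h (log2 fold change -0.51 ± 0.18, adjusted p = 0.0334, but 0.166 without Col-0 0 h replicate 2). CAB1 and CAB3, and LHB1B1 and LHB1B2, are near-identical pairs, so the split of reads within a pair is uncertain. KIN2 has the close copy KIN1, with the same limit.

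**Figure D1:**
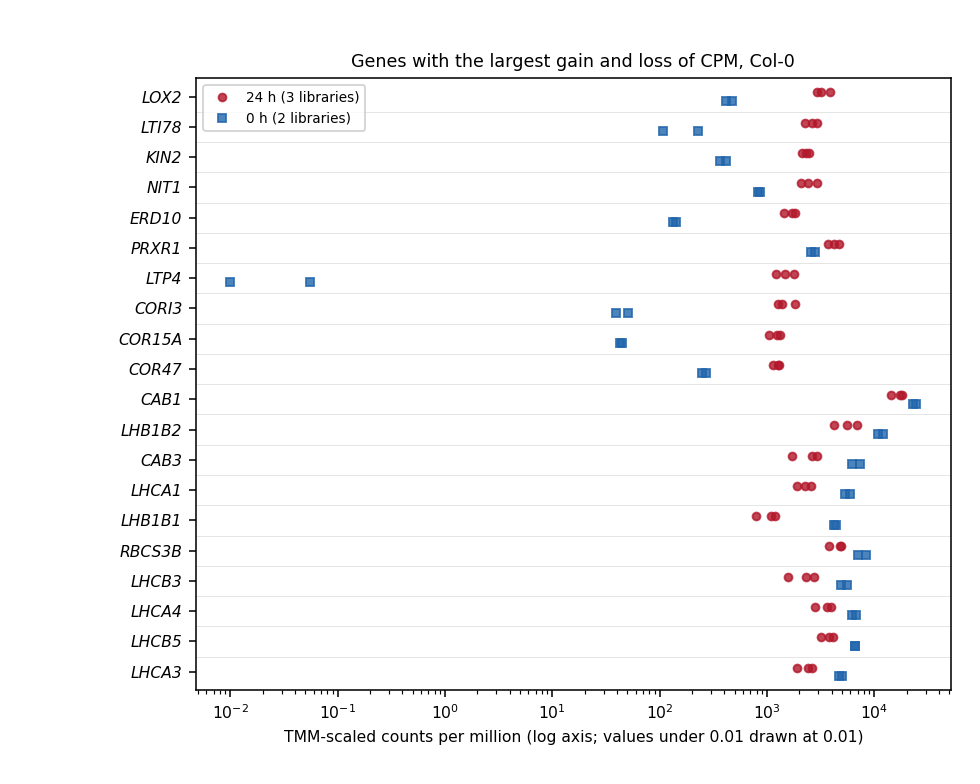
CPM (horizontal log axis) of the 10 genes with the largest gain and the 10 with the largest loss in Col-0, with 3 circles for the 24 h libraries above 2 squares for the 0 h libraries and values under 0.01 drawn at 0.01. LTP4 and CORI3 lie furthest apart, and CAB1 shows the smallest relative change, with 14339 to 18215 CPM at 24 h and 22819 to 24619.6 CPM at 0 h.

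Promoters of 4 genes that rose are printed because each holds a motif named in the shares that follow. They come from the 300 bases before the gene start in RefSeq's annotation of TAIR10.1, read 5′ to 3′ on the gene's strand, and were picked for holding the motifs. Capitals mark, on either strand, the dehydration-responsive element (DRE) core CCGAC in LTI78 (chr5:21240417-21240716, plus strand) and COR15A (chr2:17712331-17712630, minus strand), the G-box CACGTG in COR15A and NAC019 (chr1:19698483-19698782, minus strand) with the overlapping abscisic acid-responsive element (ABRE) core ACGTGNC in NAC019, and the CAMTA motif CGCGT in RHL41 (chr5:24102514-24102813, plus strand).
LTI78: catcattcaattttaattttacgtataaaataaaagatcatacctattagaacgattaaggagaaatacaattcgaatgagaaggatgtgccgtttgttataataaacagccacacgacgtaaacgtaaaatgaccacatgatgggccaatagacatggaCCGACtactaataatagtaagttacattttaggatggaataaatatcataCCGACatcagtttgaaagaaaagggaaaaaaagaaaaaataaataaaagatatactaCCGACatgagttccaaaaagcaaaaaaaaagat
COR15A: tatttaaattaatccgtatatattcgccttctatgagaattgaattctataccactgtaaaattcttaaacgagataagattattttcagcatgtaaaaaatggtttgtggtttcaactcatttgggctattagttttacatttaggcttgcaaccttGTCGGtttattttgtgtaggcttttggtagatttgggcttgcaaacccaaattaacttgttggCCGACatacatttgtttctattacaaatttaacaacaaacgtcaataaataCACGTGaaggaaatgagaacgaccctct
NAC019: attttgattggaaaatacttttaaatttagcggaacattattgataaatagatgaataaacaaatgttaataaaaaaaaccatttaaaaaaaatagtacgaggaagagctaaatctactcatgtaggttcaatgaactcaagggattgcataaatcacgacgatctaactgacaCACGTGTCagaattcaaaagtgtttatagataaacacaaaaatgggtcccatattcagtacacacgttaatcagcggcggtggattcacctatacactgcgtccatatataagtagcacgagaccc
RHL41: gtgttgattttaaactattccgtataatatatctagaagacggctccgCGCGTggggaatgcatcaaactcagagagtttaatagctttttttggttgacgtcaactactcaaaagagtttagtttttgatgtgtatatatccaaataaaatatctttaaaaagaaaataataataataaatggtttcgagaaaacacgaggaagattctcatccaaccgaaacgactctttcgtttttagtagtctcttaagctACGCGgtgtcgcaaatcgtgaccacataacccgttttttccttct
LTI78 held 3 DRE cores, the first base of each at -140, -90 and -33 from the gene start, and COR15A held 2, at -142 and -79. The G-box of COR15A started at -28 and that of NAC019 at -126. RHL41 held 2 CAMTA motifs, at -252 and -45.

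Across the genome, the ABRE core was found on either strand in 15.7% of 2420 promoters of genes that rose at least 2-fold, 9.29% of 1442 that fell at least 2-fold, 8.93% of 11220 not called and 9.46% of all 27431. The G-box gave 12.3%, 6.59%, 7.32% and 7.09% in the same order, and the CAMTA motif 11.7%, 7.49%, 8.25% and 7.89%. W-boxes (TTGACC or TTGACT), bound by WRKY factors, were in 36.6%, 30.7%, 31.1% and 32.3%. The site II element TGGGCC is typical of genes for protein synthesis. It gave 9.26%, 15.9%, 17.5% and 14.6% in the same order, so genes that fell lay below those not called. The TELO-box core AAACCCT was in 4.34%, 7.0%, 8.3% and 8.51%. DRE cores (16.5%, 14.6%, 14.3% and 13.9%) and the evening element core AATATCT (12.3%, 12.8%, 11.5% and 11.8%) differed less. All motifs were searched on both strands, and the G-box and the ABRE core can overlap by 5 letters. A match is a run of letters, not a site, and no test was made.

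**Figure D2:**
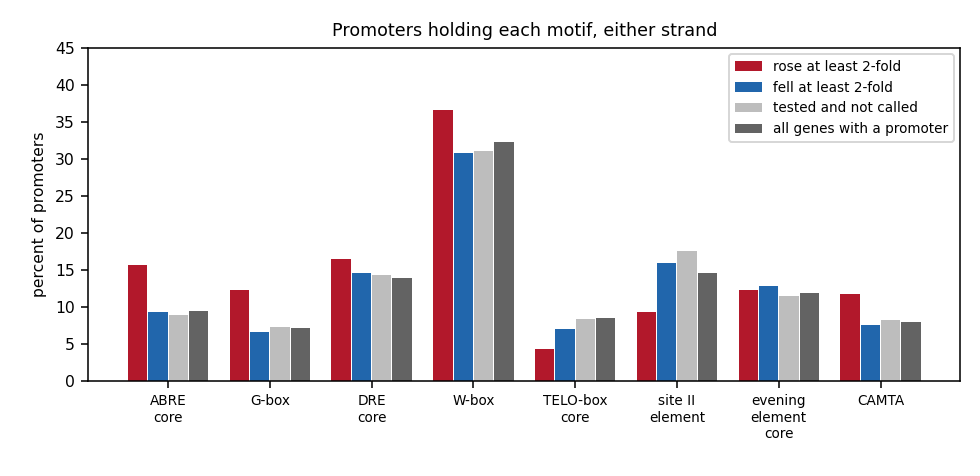
Percent of promoters (vertical axis) with each motif among genes that rose at least 2-fold, fell at least 2-fold, were not called, and all genes. The ABRE core, G-box and CAMTA bars are tallest for genes that rose, while the site II and TELO-box bars are shortest for them.

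In lists of transcription factors known from stress, calls were mostly rises, although in all but the ZAT list many members did not pass the test. Lists were chosen with earlier results of these data known and need not hold whole families. All 8 listed C2H2 zinc fingers of the ZAT type, repressors that act early in salt and oxidative stress, rose (median log2 fold change 3.62). STZ (ZAT10) had 34.1, 25.5 and 26.6 CPM at 24 h, against 0.999 and 0.427 CPM at 0 h (log2 fold change 5.32 ± 0.62, adjusted p = 1.85e-05). RHL41 (ZAT12) had 12.1, 9.33 and 13.5 CPM at 24 h, against 0.370 and 0.311 CPM at 0 h (log2 fold change 5.08 ± 0.63, adjusted p = 2.53e-05). Among NAC factors 38 of 83 tested members rose (45.8%) and 4 fell (4.82%), with a median log2 fold change of 0.75. NAC019, a regulator of abscisic acid and jasmonate responses, had 60.0, 42.9 and 43.4 CPM at 24 h, against 0.925 and 0.582 CPM at 0 h (log2 fold change 6.01 ± 0.51, adjusted p = 1.24e-06). RD26 had 53.0, 53.1 and 46.9 CPM at 24 h, against 3.98 and 3.57 CPM at 0 h (log2 fold change 3.75 ± 0.34). For all 4 of these genes every 24 h library was at least 10 times above both 0 h libraries. Without 1 library the counts included 5 ZAT rises and 24 NAC rises without Col-0 0 h replicate 2.

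Of WRKY factors, 26 of 59 tested members rose (44.1%) and 5 fell (8.47%), with a median log2 fold change of 0.55. WRKY40, a repressor in defence and abscisic acid signalling, had 27.9, 26.1 and 24.2 CPM at 24 h, against 0.722 and 0.291 CPM at 0 h (log2 fold change 5.67 ± 0.79, adjusted p = 8.62e-05). WRKY46 and WRKY48 rose, with log2 fold changes of 3.98 ± 0.57 and 3.57 ± 0.47. WRKY29 was the family's largest fall among members of at least 5 CPM, with 1.53, 2.11 and 1.24 CPM at 24 h, against 5.42 and 4.77 CPM at 0 h (log2 fold change -1.65 ± 0.28, adjusted p = 2.41e-04). Of ERF and DREB factors, 28 of 58 tested members rose (48.3%) and 5 fell (8.62%), with a median log2 fold change of 0.55. DREB2A, an activator of drought genes through the DRE, had 24.5, 26.5 and 27.5 CPM at 24 h, against 5.11 and 4.15 CPM at 0 h (log2 fold change 2.50 ± 0.27, adjusted p = 6.39e-06). ERF11, an ethylene-responsive repressor, had 5.71, 5.57 and 5.45 CPM at 24 h, against 0.204 and 0.0582 CPM at 0 h (log2 fold change 5.38 ± 0.65). CRF2, a cytokinin response factor, fell, with 7.22, 9.06 and 7.93 CPM at 24 h, against 17.6 and 18.0 CPM at 0 h (log2 fold change -1.14 ± 0.16). B-box proteins, which link light and the circadian clock to growth, tended the other way, as 4 of 27 tested members rose (14.8%) and 10 fell (37.0%), with a median log2 fold change of -0.25. BBX27 had 12.3, 12.3 and 11.8 CPM at 24 h, against 49.5 and 45.4 CPM at 0 h (log2 fold change -1.97 ± 0.19, adjusted p = 2.38e-06). BBX13 rose (log2 fold change 0.98 ± 0.09). TCP factors, which govern leaf cell proliferation, were called in both directions at about the background share. Of 24 tested members 5 rose (20.8%) and 6 fell (25.0%), with a median log2 fold change of -0.23. AT5G08330, a TCP gene under the RefSeq symbol TCP11, had 32.3, 32.2 and 27.7 CPM at 24 h, against 86.0 and 105 CPM at 0 h (log2 fold change -1.64 ± 0.11, adjusted p = 1.22e-07). The plastid factor PTF1 rose (log2 fold change 1.61 ± 0.22). Counts that moved were 3 ERF and DREB falls and 3 TCP rises without Col-0 0 h replicate 1; 3 ERF and DREB falls, 6 B-box falls and 3 TCP rises without Col-0 0 h replicate 2; 3 TCP rises without Col-0 24 h replicate 2; 3 TCP rises without Col-0 24 h replicate 3.

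Calcium and kinase signalling genes had more rises than falls. Calmodulin-like proteins sense calcium. Of the 20 listed here, 13 of 18 tested members rose (72.2%) and 1 fell (5.56%), with a median log2 fold change of 1.34. CML11 had 6.63, 5.0 and 6.92 CPM at 24 h, against 0.574 and 0.427 CPM at 0 h (log2 fold change 3.62 ± 0.32, adjusted p = 1.03e-06). CML38 had 8.76, 7.21 and 7.02 CPM at 24 h, against 1.18 and 0.835 CPM at 0 h (log2 fold change 2.92 ± 0.31). CAM3, one of several genes that encode nearly the same calmodulin, had 227, 218 and 228 CPM at 24 h, against 129.9 and 134 CPM at 0 h (log2 fold change 0.77 ± 0.11), and its reads may be shared with those copies. Of calcium-dependent kinases and the CBL-interacting kinases (CIPK) that act with calcineurin B-like sensors, 27 of 60 tested members rose (45%) and 10 fell (16.7%), with a median log2 fold change of 0.36. CIPK25 rose, with 9.53, 9.82 and 9.79 CPM at 24 h, against 0.907 and 0.641 CPM at 0 h (log2 fold change 3.64 ± 0.51, adjusted p = 5.03e-05). CIPK20 fell, with 3.93, 4.87 and 2.71 CPM at 24 h, against 27.4 and 27.7 CPM at 0 h (log2 fold change -2.84 ± 0.23, adjusted p = 4.48e-07). SIP4, a partner of the SOS3 family of sensors in salt signalling, rose (log2 fold change 2.51 ± 0.28). CIPK9, which acts in potassium nutrition, rose (log2 fold change 1.99 ± 0.19).

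At the plasma membrane, cysteine-rich receptor-like kinases, many of them induced by pathogens and oxidants, were called more upward than downward, as 18 of 38 tested members rose (47.4%) and 6 fell (15.8%), with a median log2 fold change of 0.88. CRK6 had 21.8, 15.3 and 31.3 CPM at 24 h, against 0.648 and 0.349 CPM at 0 h (log2 fold change 5.50 ± 0.62, adjusted p = 1.29e-05). CRK21 fell, with 9.65, 9.58 and 9.09 CPM at 24 h, against 28.8 and 28.7 CPM at 0 h (log2 fold change -1.61 ± 0.13). These genes lie in a tandem cluster, and reads common to neighbours could have been assigned to either. Of glutamate receptor and cyclic nucleotide-gated channels, 13 of 35 tested members rose (37.1%) and 2 fell (5.71%), with a median log2 fold change of 0.32. GLR2.7 rose, with 20.2, 16.2 and 27.2 CPM at 24 h, against 5.22 and 4.83 CPM at 0 h (log2 fold change 2.08 ± 0.31, adjusted p = 1.08e-04). In the MAP kinase cascade 20 of 50 tested members rose (40.0%) and 5 fell (10%), with a median log2 fold change of 0.27. MPK11 had 6.54, 6.57 and 10.3 CPM at 24 h, against 0.130 and 0.136 CPM at 0 h (log2 fold change 5.85 ± 1.02, adjusted p = 4.03e-04). MAPKKK21 rose (log2 fold change 6.03 ± 0.82). Among secreted peptide hormone genes, 12 of 52 tested members rose (23.1%) and 6 fell (11.5%), with a median log2 fold change of 0.05. The 3 rises named are precursors of phytosulfokine, a sulfated growth peptide. PSK2 had 15.7, 9.13 and 11.5 CPM at 24 h, against 0.666 and 0.679 CPM at 0 h (log2 fold change 4.17 ± 0.30, adjusted p = 1.70e-07). PSK5 and PSK4 rose, with log2 fold changes of 2.41 ± 0.30 and 1.75 ± 0.31. Intracellular immune receptors of the NB-LRR class were called in both directions at about the background share, as 26 of 130 tested members rose (20%) and 27 fell (20.8%), with a median log2 fold change of -0.12. AT5G41750 rose (log2 fold change 4.49 ± 0.73). RPP4 fell, with 47.1, 46.7 and 48.8 CPM at 24 h, against 139.6 and 113 CPM at 0 h (log2 fold change -1.41 ± 0.17). Leaving out 1 library gave 5 calcium-regulated kinase falls, 3 cysteine-rich receptor kinase falls, 3 MAP kinase falls and 17 NB-LRR rises without Col-0 0 h replicate 1; 7 ion channel rises, 12 MAP kinase rises, 2 MAP kinase falls, 1 peptide fall and 15 NB-LRR rises without Col-0 0 h replicate 2; 3 MAP kinase falls without Col-0 24 h replicate 2.

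**Figure D3:**
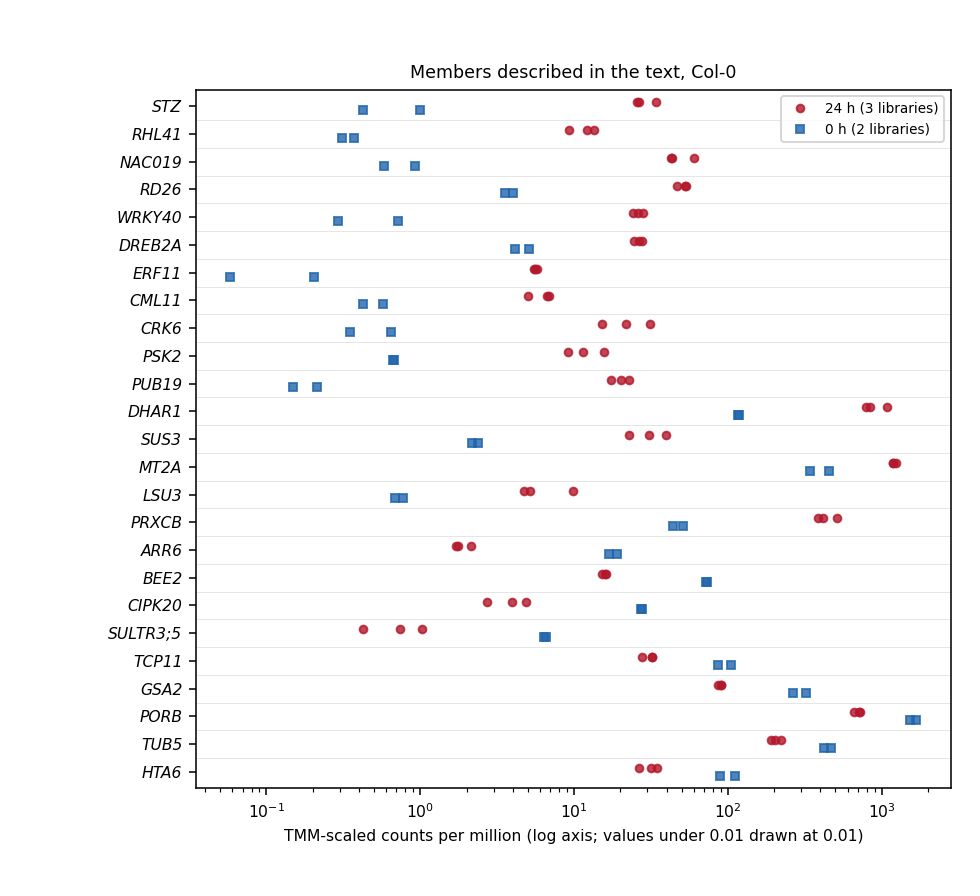
CPM (horizontal log axis) of 25 members described in the text, with 3 circles for the 24 h libraries above 2 squares for the 0 h libraries of Col-0. The circles and squares of every gene shown are separate, the circles to the right for STZ to PRXCB and to the left for ARR6 to HTA6.

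Glutathione transferases, glycosyltransferases and MATE carriers, which conjugate or export foreign and toxic compounds, held shares of rises above the 25.4% of all genes tested. Of the phi-class and other glutathione transferases outside the tau class, 14 of 24 tested members rose (58.3%) and 2 fell (8.33%), with a median log2 fold change of 0.65. DHAR1, a dehydroascorbate reductase of the same fold that regenerates ascorbate, had 1091, 839.8 and 794 CPM at 24 h, against 118 and 117 CPM at 0 h (log2 fold change 2.95 ± 0.23, adjusted p = 3.61e-07). GSTF12, which carries anthocyanins to the vacuole, rose (log2 fold change 4.57 ± 0.50). Of UDP-glycosyltransferases, which add sugars to hormones and secondary metabolites, 30 of 57 tested members rose (52.6%) and 6 fell (10.5%), with a median log2 fold change of 0.91. UGT73C1 had 6.81, 4.87 and 10.2 CPM at 24 h, against 0.463 and 0.0582 CPM at 0 h (log2 fold change 4.78 ± 0.93, adjusted p = 9.48e-04). UGT76C2, a cytokinin glucosyltransferase, fell, with 4.0, 3.72 and 6.53 CPM at 24 h, against 17 and 16.4 CPM at 0 h (log2 fold change -1.82 ± 0.33). Of MATE carriers, which export organic acids and alkaloids, 24 of 48 tested members rose (50%) and 5 fell (10.4%), with a median log2 fold change of 0.79. FRD3, a citrate exporter, had 6.45, 5.55 and 7.02 CPM at 24 h, against 0.944 and 0.912 CPM at 0 h (log2 fold change 2.77 ± 0.33, adjusted p = 1.33e-05). AT1G61890 had 155, 153 and 146 CPM at 24 h, against 26.9 and 27.4 CPM at 0 h (log2 fold change 2.48 ± 0.24).

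Cytochrome P450s and ABC transporters are large and diverse families with calls in both directions. For P450s, 50 of 166 tested members rose (30.1%) and 37 fell (22.3%), with a median log2 fold change of 0.22. These shares were near the 25.4% and 21.4% of all genes tested. CYP71B22 fell, with 3.32, 1.5 and 2.42 CPM at 24 h, against 20.5 and 15.6 CPM at 0 h (log2 fold change -2.90 ± 0.42, adjusted p = 8.08e-05). CYP71A13, of camalexin synthesis, rose (log2 fold change 6.08 ± 0.99). For ABC transporters, 15 of 76 tested members rose (19.7%) and 12 fell (15.8%), with a median log2 fold change of 0.03. Here both shares lay below those of all genes. ABCC4 and ABCC3, vacuolar or plasma membrane pumps for conjugates, rose, with log2 fold changes of 2.62 ± 0.36 and 1.98 ± 0.36, and ABCB19, an auxin exporter, fell, with 90.7, 107 and 113 CPM at 24 h, against 211 and 213 CPM at 0 h (log2 fold change -1.03 ± 0.12, adjusted p = 1.14e-05). Class III peroxidases cross-link walls and generate or consume hydrogen peroxide. Of 51 tested members 12 rose (23.5%) and 7 fell (13.7%), with a median log2 fold change of 0.64. Both shares were below the 25.4% and 21.4% of all genes tested. PRXCB had 509, 384 and 414 CPM at 24 h, against 51.2 and 43.7 CPM at 0 h (log2 fold change 3.20 ± 0.25, adjusted p = 3.25e-07), while its close relative PRXCA had 13.2, 13.3 and 12 CPM at 24 h, against 34.6 and 37.1 CPM at 0 h (log2 fold change -1.48 ± 0.41, adjusted p = 0.00978, but adjusted p = 0.0522 without Col-0 0 h replicate 2). There were 3 UGT falls, 3 MATE falls and 21 P450 falls without Col-0 0 h replicate 1 and 7 GST rises, 17 UGT rises, 9 ABC rises and 3 peroxidase falls without Col-0 0 h replicate 2.

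Sulfate and metal genes had more rises than falls, and phosphate starvation genes were mixed. Of genes for sulfate uptake and assimilation, 17 of 34 tested members rose (50%) and 2 fell (5.88%), with a median log2 fold change of 0.62. LSU3, of a small family named for its response to low sulfur, had 9.79, 4.70 and 5.15 CPM at 24 h, against 0.685 and 0.776 CPM at 0 h (log2 fold change 3.16 ± 0.39, adjusted p = 1.62e-05). APS1, an ATP sulfurylase that activates sulfate, had 674, 622 and 653 CPM at 24 h, against 347 and 322 CPM at 0 h (log2 fold change 0.96 ± 0.15, adjusted p = 1.48e-04). SULTR3;5, a sulfate transporter, fell, with 0.427, 1.02 and 0.736 CPM at 24 h, against 6.38 and 6.56 CPM at 0 h (log2 fold change -3.15 ± 0.57). Of zinc, copper and metallothionein genes, 15 of 39 tested members rose (38.5%) and 6 fell (15.4%), with a median log2 fold change of 0.32. MT2A, a metal-binding metallothionein, had 1178, 1248 and 1177 CPM at 24 h, against 452 and 339.9 CPM at 0 h (log2 fold change 1.60 ± 0.14, adjusted p = 9.66e-07). NAS3, which makes the metal chelator nicotianamine, had 16.4, 18.1 and 17.1 CPM at 24 h, against 3.50 and 2.97 CPM at 0 h (log2 fold change 2.41 ± 0.59). Among the falls was the P-type ATPase that delivers copper to thylakoids, called PAA2 (AT5G21930), with a log2 fold change of -1.13 ± 0.14. RNS1, a secreted ribonuclease induced by phosphate starvation and wounding, was near 0 before salt, with 57.1, 33.1 and 49.0 CPM at 24 h, against 0.111 and 0 CPM at 0 h (log2 fold change 9.62 ± 1.13, adjusted p = 2.23e-05). Its list was mixed, since among phosphate starvation genes 4 of 19 tested members rose (21.1%) and 7 fell (36.8%), with a median log2 fold change of 0.03. Of these calls, 4 rises and 0 falls were of at least 2-fold. SPX1, a phosphate sensor and the usual marker of that starvation, had 14.1, 12.3 and 9.44 CPM at 24 h, against 21.6 and 17.1 CPM at 0 h (log2 fold change -0.69 ± 0.21, adjusted p = 0.0134, but 0.147 without Col-0 0 h replicate 1). Without 1 library the counts included 3 metal falls and 3 phosphate falls without Col-0 0 h replicate 1 and 3 phosphate falls without Col-0 24 h replicate 3.

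In carbon metabolism, the list of sucrose synthases and invertases, which split sucrose, rose or was not called. It also held SPS1F, which acts in sucrose synthesis, so its counts are not of sucrose splitting alone. Of the list, 6 of 19 tested members rose (31.6%) and 0 fell (0%), with a median log2 fold change of 0.35. SUS3 had 22.9, 39.8 and 30.9 CPM at 24 h, against 2.18 and 2.37 CPM at 0 h (log2 fold change 3.78 ± 0.36, adjusted p = 2.45e-06). SUS1 had 109.9, 129.5 and 145 CPM at 24 h, against 24.6 and 23.6 CPM at 0 h (log2 fold change 2.41 ± 0.31). CWINV5, a cell wall invertase, rose (log2 fold change 7.98 ± 1.05) and was nearly absent at 0 h. SPS1F, the sucrose phosphate synthase with the highest CPM of the list, had 275, 281 and 305 CPM at 24 h, against 241 and 210.0 CPM at 0 h (log2 fold change 0.35 ± 0.16, adjusted p = 0.0872). Of fatty acid beta-oxidation and glyoxylate cycle genes, 4 of 16 tested members rose (25.0%) and 1 fell (6.25%), with a median log2 fold change of 0.14. The share of rises was about the 25.4% of all genes tested. ACX1, an acyl-CoA oxidase that also serves jasmonate synthesis, had 253, 218 and 241 CPM at 24 h, against 77.8 and 74.3 CPM at 0 h (log2 fold change 1.64 ± 0.31, adjusted p = 6.92e-04). LACS7, which activates fatty acids in peroxisomes, rose (log2 fold change 1.35 ± 0.12). For breakdown of branched-chain amino acids, 2 of 11 tested members rose (18.2%) and 4 fell (36.4%), with a median log2 fold change of -0.21. BCAT-2, a transaminase, rose (log2 fold change 2.72 ± 0.48). DIN4, of the next step, fell (log2 fold change -0.71 ± 0.11). Photorespiratory genes, which recycle the by-product of Rubisco's reaction with oxygen, fell or were not called, as 0 of 17 tested members rose (0%) and 8 fell (47.1%), with a median log2 fold change of -0.44. GOX2, a glycolate oxidase, had 490.0, 432 and 490.3 CPM at 24 h, against 894 and 859 CPM at 0 h (log2 fold change -0.90 ± 0.21, adjusted p = 0.00305).

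Lignin and core phenylpropanoid genes were called mainly upward, as 17 of 32 tested members rose (53.1%) and 5 fell (15.6%), with a median log2 fold change of 0.76. CCR2, a cinnamoyl-CoA reductase, had 5.79, 7.26 and 6.80 CPM at 24 h, against 0.389 and 0.136 CPM at 0 h (log2 fold change 4.64 ± 0.64, adjusted p = 5.46e-05). LAC2, a laccase, had 14.5, 18.3 and 19.5 CPM at 24 h, against 4.02 and 2.41 CPM at 0 h (log2 fold change 2.44 ± 0.43). CCoAOMT1, a methyltransferase of monolignol synthesis, had 387, 379 and 374 CPM at 24 h, against 218 and 199 CPM at 0 h (log2 fold change 0.87 ± 0.12, adjusted p = 5.10e-05). FAH1, the ferulate hydroxylase of the sinapate branch, fell, with 92.7, 86.9 and 88.2 CPM at 24 h, against 127 and 138 CPM at 0 h (log2 fold change -0.57 ± 0.10). Among 16 tested vascular markers 8 rose and 2 fell. IRX3, a cellulose synthase of secondary walls, had 31.5, 43.1 and 50.1 CPM at 24 h, against 13.5 and 10.8 CPM at 0 h (log2 fold change 1.77 ± 0.24), IRX1 and IRX6 rose, with log2 fold changes of 1.5 ± 0.22 and 1.95 ± 0.18, and PXY and HB-8, of the vascular stem cells and procambium, fell, with log2 fold changes of -0.79 ± 0.14 and -0.98 ± 0.19. The part of vascular tissue in the change of lignin genes was not tested.

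Enzymes and partners of the mustard oil bomb, in which myrosinases hydrolyse glucosinolates on wounding, had more rises than falls. Of the list, 8 of 14 tested members rose (57.1%) and 2 fell (14.3%), with a median log2 fold change of 0.75. The myrosinase-binding protein MBP1 had 214, 179 and 152 CPM at 24 h, against 30.6 and 45.5 CPM at 0 h (log2 fold change 2.26 ± 0.22, adjusted p = 2.10e-06). ESP, the epithiospecifier that diverts the reaction to nitriles, had 162, 128 and 145 CPM at 24 h, against 28.8 and 42.2 CPM at 0 h (log2 fold change 2.03 ± 0.21, adjusted p = 3.21e-06). The calls of the myrosinases TGG1 and TGG2 were lost without Col-0 0 h replicate 2, although both 0 h libraries lay above every 24 h library. TGG1 had 2117, 2795 and 2425 CPM at 24 h, against 3503 and 3848 CPM at 0 h (log2 fold change -0.59 ± 0.22, adjusted p = 0.0361, but 0.173 without Col-0 0 h replicate 2). TGG2 had a log2 fold change of -0.62 ± 0.19 (adjusted p = 0.0129, but adjusted p = 0.176 without Col-0 0 h replicate 2). Precursors of terpenoids, made by a plastid and a cytosolic route, fell or were not called, as 0 of 19 tested members rose (0%) and 9 fell (47.4%), with a median log2 fold change of -0.36. CLA1, the first enzyme of the plastid route, had 249, 276 and 261 CPM at 24 h, against 485 and 490.4 CPM at 0 h (log2 fold change -0.90 ± 0.11, adjusted p = 1.83e-05). HMGS, of the cytosolic route, fell (log2 fold change -0.90 ± 0.13). Counts that moved were 2 phenylpropanoid falls without Col-0 0 h replicate 1.

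Cell wall and surface families went both ways. Of fasciclin-like and other arabinogalactan proteins, 7 of 43 tested members rose (16.3%) and 14 fell (32.6%), with a median log2 fold change of 0.01. AGP2 had 45.9, 37.6 and 38.6 CPM at 24 h, against 4.13 and 3.53 CPM at 0 h (log2 fold change 3.41 ± 0.59, adjusted p = 4.49e-04). FLA9 had 9.19, 7.10 and 8.28 CPM at 24 h, against 105 and 175 CPM at 0 h (log2 fold change -4.10 ± 0.26, adjusted p = 7.10e-08). AGP41 fell less, with 3.84, 4.93 and 3.38 CPM at 24 h, against 12.6 and 12.3 CPM at 0 h (log2 fold change -1.62 ± 0.27). AGP15, the member with the highest CPM, had 743, 614 and 661 CPM at 24 h, against 383 and 610.0 CPM at 0 h (log2 fold change 0.44 ± 0.28, adjusted p = 0.213). Of pectin methylesterases and enzymes that build or cut polygalacturonan, 12 of 39 tested members rose (30.8%) and 6 fell (15.4%), with a median log2 fold change of 0.28. PME5 had 25.4, 25.2 and 17.8 CPM at 24 h, against 117 and 159 CPM at 0 h (log2 fold change -2.60 ± 0.65, adjusted p = 0.00536). GAUT12, a glycosyltransferase of secondary wall xylan, rose (log2 fold change 2.15 ± 0.24). Of GDSL lipases, 8 of 67 tested members rose (11.9%) and 14 fell (20.9%), with a median log2 fold change of 0.15. AT4G18970 had 36.5, 36.4 and 33.7 CPM at 24 h, against 119.9 and 167 CPM at 0 h (log2 fold change -2.01 ± 0.28, adjusted p = 5.38e-05). AT5G55050 had 43.8, 30.6 and 38.7 CPM at 24 h, against 7.59 and 6.89 CPM at 0 h (log2 fold change 2.38 ± 0.25). Leaving out 1 library gave 8 arabinogalactan falls, 7 pectin rises and 7 GDSL falls without Col-0 0 h replicate 2 and 9 GDSL falls without Col-0 24 h replicate 2.

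Genes of the growth hormones cytokinin, brassinosteroid and auxin outside the Aux/IAA family were called mainly downward or both ways. Of cytokinin genes, 15 of 54 tested members rose (27.8%) and 17 fell (31.5%), with a median log2 fold change of -0.04. The type-A response regulators, primary targets of cytokinin that damp its signal, gave 2 of the 3 largest falls among members of at least 5 CPM. ARR6 had 1.76, 1.71 and 2.14 CPM at 24 h, against 19.1 and 16.9 CPM at 0 h (log2 fold change -3.26 ± 0.25, adjusted p = 2.87e-07), and its relative named RR5 had 2.03, 1.33 and 2.28 CPM at 24 h, against 11.4 and 12 CPM at 0 h (log2 fold change -2.64 ± 0.33). CKX4, a cytokinin oxidase, had 0.871, 0.726 and 0.438 CPM at 24 h, against 7.03 and 7.14 CPM at 0 h (log2 fold change -3.38 ± 0.32). AHP4, a phosphotransmitter of the pathway, rose, with 20.6, 31.4 and 15.4 CPM at 24 h, against 1.31 and 0.505 CPM at 0 h (log2 fold change 4.62 ± 0.52, adjusted p = 9.97e-06). HK3, a cytokinin receptor, had 80.5, 98.8 and 107 CPM at 24 h, against 108 and 93.4 CPM at 0 h (log2 fold change -0.08 ± 0.16, adjusted p = 0.720), and the 2 groups overlapped.

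Of brassinosteroid genes, 3 of 21 tested members rose (14.3%) and 11 fell (52.4%), with a median log2 fold change of -0.52. BEE2, a helix-loop-helix factor induced by the hormone, had 15.8, 15.3 and 16.1 CPM at 24 h, against 72.3 and 72.8 CPM at 0 h (log2 fold change -2.20 ± 0.13, adjusted p = 3.90e-08). BEE1 had a log2 fold change of -1.80 ± 0.22. DWF1, a biosynthetic enzyme, had 336, 383 and 390.3 CPM at 24 h, against 553 and 610.2 CPM at 0 h (log2 fold change -0.65 ± 0.14, adjusted p = 0.00188). SAUR genes, short transcripts that auxin raises during cell elongation, held 31 falls of at least 2-fold, the most of any list described. Of the family, 12 of 66 tested members rose (18.2%) and 33 fell (50%), with a median log2 fold change of -0.93. AT4G34790 had 0.196, 0.242 and 0.210 CPM at 24 h, against 5.31 and 6.13 CPM at 0 h (log2 fold change -4.71 ± 0.40, adjusted p = 6.38e-07). AT1G29430 had 1.81, 1.76 and 0.841 CPM at 24 h, against 9.77 and 13.3 CPM at 0 h (log2 fold change -2.97 ± 0.36). SAUR36, a member linked to leaf senescence, rose, with 10.6, 8.64 and 10.1 CPM at 24 h, against 1.54 and 1.94 CPM at 0 h (log2 fold change 2.50 ± 0.26). SAUR22 (log2 fold change -3.06 ± 0.31) lies among near-identical neighbours, so reads may be split between them. There were 8 cytokinin rises without Col-0 0 h replicate 1 and 7 cytokinin rises without Col-0 0 h replicate 2.

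Among the protein turnover genes of at least 5 CPM, a ubiquitin ligase had the largest rise. PUB19, a negative regulator of abscisic acid and drought responses, had 17.4, 22.7 and 20.1 CPM at 24 h, against 0.148 and 0.214 CPM at 0 h (log2 fold change 6.78 ± 0.52, adjusted p = 3.79e-07). Of plant U-box ligases, 9 of 22 tested members rose (40.9%) and 2 fell (9.09%), with a median log2 fold change of 0.16, with PUB23, of the same drought group, at a log2 fold change of 1.82 ± 0.24. For the 26S proteasome, 12 of 40 tested members rose (30.0%) and 4 fell (10%), with a median log2 fold change of 0.10. None of these calls was of at least 2-fold. RPT1A, the subunit with the highest CPM, had 192, 168 and 172 CPM at 24 h, against 139 and 151 CPM at 0 h (log2 fold change 0.29 ± 0.11, adjusted p = 0.0421, but 0.237 without Col-0 0 h replicate 1, and 0.0622 with relative log expression scaling). For autophagy, 12 of 32 tested members rose (37.5%) and 2 fell (6.25%), with a median log2 fold change of 0.18. ATG8H, a ubiquitin-like protein that marks autophagosomes, had 22.4, 17.3 and 20.4 CPM at 24 h, against 7.88 and 6.83 CPM at 0 h (log2 fold change 1.44 ± 0.15, adjusted p = 4.76e-06). ATG8E of the same family had 18.9, 16.8 and 19.9 CPM at 24 h, against 29.6 and 32.7 CPM at 0 h (log2 fold change -0.75 ± 0.12, adjusted p = 1.46e-04). Without 1 library the counts included 4 proteasome rises without Col-0 0 h replicate 1; 2 autophagy rises without Col-0 0 h replicate 2; 7 proteasome rises and 6 autophagy rises without Col-0 24 h replicate 1.

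Aminoacyl-tRNA synthetases, which charge tRNAs with amino acids, fell or were not called, as 0 of 44 tested members rose (0%) and 36 fell (81.8%), with a median log2 fold change of -0.54. Of the falls, 29 held in every fit without 1 Col-0 library. EMB2247, an organellar valyl-tRNA synthetase homologue, had 45.4, 52.1 and 59.9 CPM at 24 h, against 123 and 119 CPM at 0 h (log2 fold change -1.21 ± 0.15, adjusted p = 2.16e-05). EMB2761, a threonyl-tRNA synthetase, had 73.4, 72.6 and 77.1 CPM at 24 h, against 165 and 161 CPM at 0 h (log2 fold change -1.13 ± 0.13). ALATS, an alanyl-tRNA synthetase with the highest CPM of the list, had 124, 154 and 148 CPM at 24 h, against 229.8 and 211 CPM at 0 h (log2 fold change -0.64 ± 0.10, adjusted p = 1.79e-04). Pentatricopeptide repeat (PPR) proteins, which process RNA in chloroplasts and mitochondria, were called mainly downward, as 4 of 258 tested members rose (1.55%) and 100 fell (38.8%), with a median log2 fold change of -0.33. AT1G19720 had 17.6, 28.6 and 31.6 CPM at 24 h, against 89 and 74.8 CPM at 0 h (log2 fold change -1.66 ± 0.28, adjusted p = 2.98e-04). AT2G20720 was one of the rises, with 11.4, 14.5 and 14.3 CPM at 24 h, against 7.16 and 4.66 CPM at 0 h (log2 fold change 1.18 ± 0.19).

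Ribosomal proteins of the cytosol were seldom called, as 1 of 58 tested members rose (1.72%) and 7 fell (12.1%), with a median log2 fold change of -0.22. RPL3B, a minor copy of L3, had 12.4, 11.6 and 9.84 CPM at 24 h, against 28.6 and 28.5 CPM at 0 h (log2 fold change -1.34 ± 0.28, adjusted p = 0.00157). RP1, also an L3 gene, had 479, 522 and 570.1 CPM at 24 h, against 695 and 743 CPM at 0 h (log2 fold change -0.46 ± 0.22, adjusted p = 0.0954). Ribosome biogenesis genes were alike in count, as 2 of 40 tested members rose (5.0%) and 6 fell (15.0%), with a median log2 fold change of -0.22. NUC-L1, a nucleolin, had 279, 303 and 301 CPM at 24 h, against 330.3 and 388 CPM at 0 h (log2 fold change -0.29 ± 0.22, adjusted p = 0.308). Of cytosolic tubulins and actins, 2 of 22 tested members rose (9.09%) and 14 fell (63.6%), with a median log2 fold change of -0.48. TUB5 had 223, 203 and 190.0 CPM at 24 h, against 421 and 466 CPM at 0 h (log2 fold change -1.11 ± 0.11, adjusted p = 2.51e-06). TUA3 had a log2 fold change of -1.0 ± 0.12 and has the close copy TUA5. ACT8 rose, with 364, 339.8 and 337 CPM at 24 h, against 277 and 246 CPM at 0 h (log2 fold change 0.41 ± 0.09). Counts that moved were 4 ribosomal protein falls and 3 biogenesis falls without Col-0 0 h replicate 1; 3 ribosomal protein falls without Col-0 0 h replicate 2; 3 ribosomal protein falls without Col-0 24 h replicate 2; 3 ribosomal protein falls without Col-0 24 h replicate 3.

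Histone genes fell in 33 of 42 tested cases, with 1 rise (median log2 fold change -0.98). HTA6, an H2A, had 34.5, 31.5 and 26.4 CPM at 24 h, against 88.5 and 112 CPM at 0 h (log2 fold change -1.70 ± 0.35, adjusted p = 0.00146). AT3G46320, of the H4 type, had 13.9, 11 and 9.09 CPM at 24 h, against 33.1 and 47.9 CPM at 0 h (log2 fold change -1.84 ± 0.33). The rise was HIS1-3, a linker histone induced by drought, with 24.8, 26.5 and 22.0 CPM at 24 h, against 4.31 and 4.48 CPM at 0 h (log2 fold change 2.47 ± 0.28, adjusted p = 9.98e-06). AT4G40040, an H3 gene of the replication-independent type, had the highest CPM, with 295, 302 and 309 CPM at 24 h, against 268 and 296 CPM at 0 h (log2 fold change 0.10 ± 0.09, adjusted p = 0.361). Coding sequences of histone copies are close to each other, so reads may be split between them.

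Tetrapyrrole and chlorophyll synthesis genes fell in 20 of 25 tested cases with no rise (median log2 fold change -0.86), and all 20 falls held in every fit without 1 Col-0 library. GSA2, an early enzyme of the route, had 90.2, 86.2 and 90.2 CPM at 24 h, against 266 and 320.4 CPM at 0 h (log2 fold change -1.72 ± 0.14, adjusted p = 4.39e-07). CHLI2, a magnesium chelatase subunit, had 41.8, 38.1 and 38.4 CPM at 24 h, against 102 and 122 CPM at 0 h (log2 fold change -1.51 ± 0.13). PORB, which reduces protochlorophyllide in light, had 711, 723 and 659 CPM at 24 h, against 1530.5 and 1679.6 CPM at 0 h (log2 fold change -1.20 ± 0.12, adjusted p = 3.58e-06). Genes for carotenoids, tocopherols and ascorbate were split, as 8 of 21 tested members rose (38.1%) and 8 fell (38.1%), with a median log2 fold change of -0.13. PDS1 and G-TMT, of tocopherol synthesis, rose, with log2 fold changes of 1.30 ± 0.23 and 1.12 ± 0.14. LUT1, a carotene hydroxylase of the lutein branch, had 32.3, 30.8 and 33.2 CPM at 24 h, against 67.6 and 64.4 CPM at 0 h (log2 fold change -1.04 ± 0.10, adjusted p = 1.44e-06). BETA-OHASE 2, a hydroxylase of the zeaxanthin branch, rose, with 11.1, 9.49 and 10.9 CPM at 24 h, against 1.42 and 1.57 CPM at 0 h (log2 fold change 2.81 ± 0.62).

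**Figure D4:**
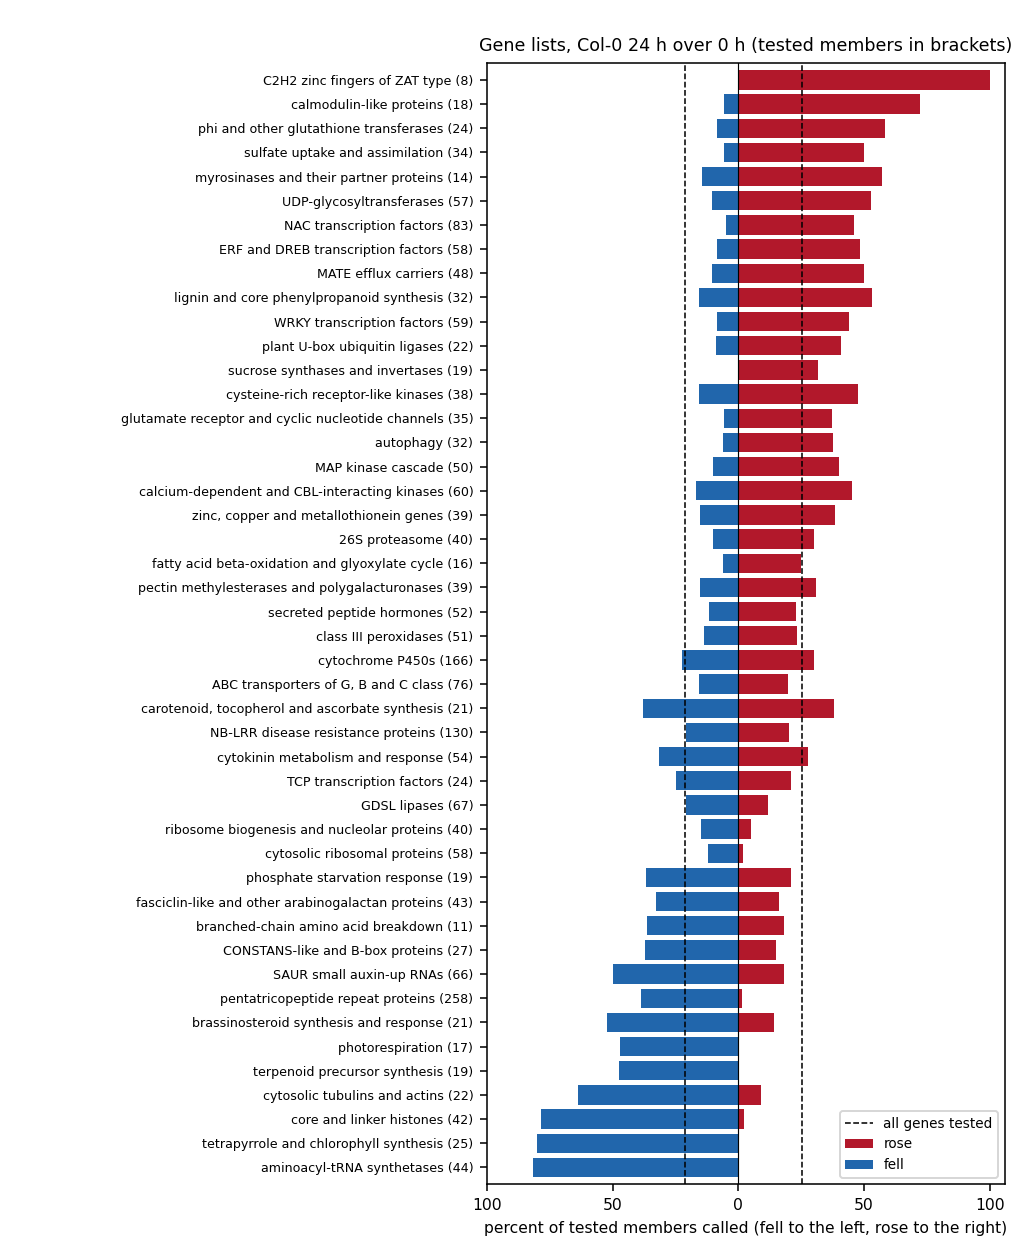
Percent of the tested members of each gene list that fell (bars to the left) and rose (bars to the right) at an adjusted p under 0.05 in Col-0, with the number tested in brackets and dashed lines at 21.4% and 25.4%, the shares of all genes. ZAT zinc fingers and calmodulin-like proteins reach furthest right, and aminoacyl-tRNA synthetases, tetrapyrrole genes and histones furthest left.

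The promoters of some lists also differed in the motifs counted above. Site II elements were in 56.2% of 64 promoters of cytosolic ribosomal proteins, 44.4% of 45 of ribosome biogenesis genes, 41.5% of 41 of the 26S proteasome and 37.8% of 45 of histones, beside 14.6% of all. These lists did not share a direction, since the proteasome had 12 rises and 4 falls and the histones 1 rise and 33 falls. W-boxes were in 60% of 40 promoters of cysteine-rich receptor-like kinases, beside 32.3% of all, and CAMTA motifs in 25% of 20 calmodulin-like and 25% of 8 ZAT promoters, beside 7.89%. These lists have the highest shares of the 3 motifs and were chosen after the shares were seen.

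The response of Col-0 was set against that of the other lines gene by gene, as the Col-0 change minus the change of the other line. In the edgeR quasi-likelihood test 1 of 21282 genes (0.00470%) differed from atdgcr14l-1 at an adjusted p under 0.05, and 0 (0%) differed from OE-6. At an unadjusted p under 0.05 in the edgeR test there were 1900 and 914 genes. With no difference at all, a share of 0.05 of the 21282 genes would be expected to pass. The count for OE-6 was below that share and the count for atdgcr14l-1 above it. DESeq2 called 123 and 8 at an adjusted p under 0.05. The gene called was HEI10, a ubiquitin ligase homologue that acts in meiotic crossover formation, and its values stand in the closing section. The list medians of the 3 lines are given as a description. ZAT zinc fingers had medians of 3.62 in Col-0, 3.31 in atdgcr14l-1 and 3.37 in OE-6, and aminoacyl-tRNA synthetases had -0.54, -0.49 and -0.63. MATE carriers had 0.79, 1.5 and 1.08, and SAUR genes -0.93, -1.31 and -1.36. Counts of falls differed for cytosolic ribosomal proteins, with 7 in Col-0, 12 in atdgcr14l-1 and 48 in OE-6 of 58 tested, at medians of -0.22, -0.28 and -0.62. They also differed for PPR proteins, with 100 falls in Col-0, 190 in atdgcr14l-1 and 151 in OE-6 of 258 tested. The difference between lines was not tested for any list, and the mutant and OE-6 have 3 libraries at 0 h where Col-0 has 2. The share of all genes called is given here for Col-0 only. The counts of falls in the other lines thus have no background beside them and cannot be read as differences particular to these families.

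**Figure D5:**
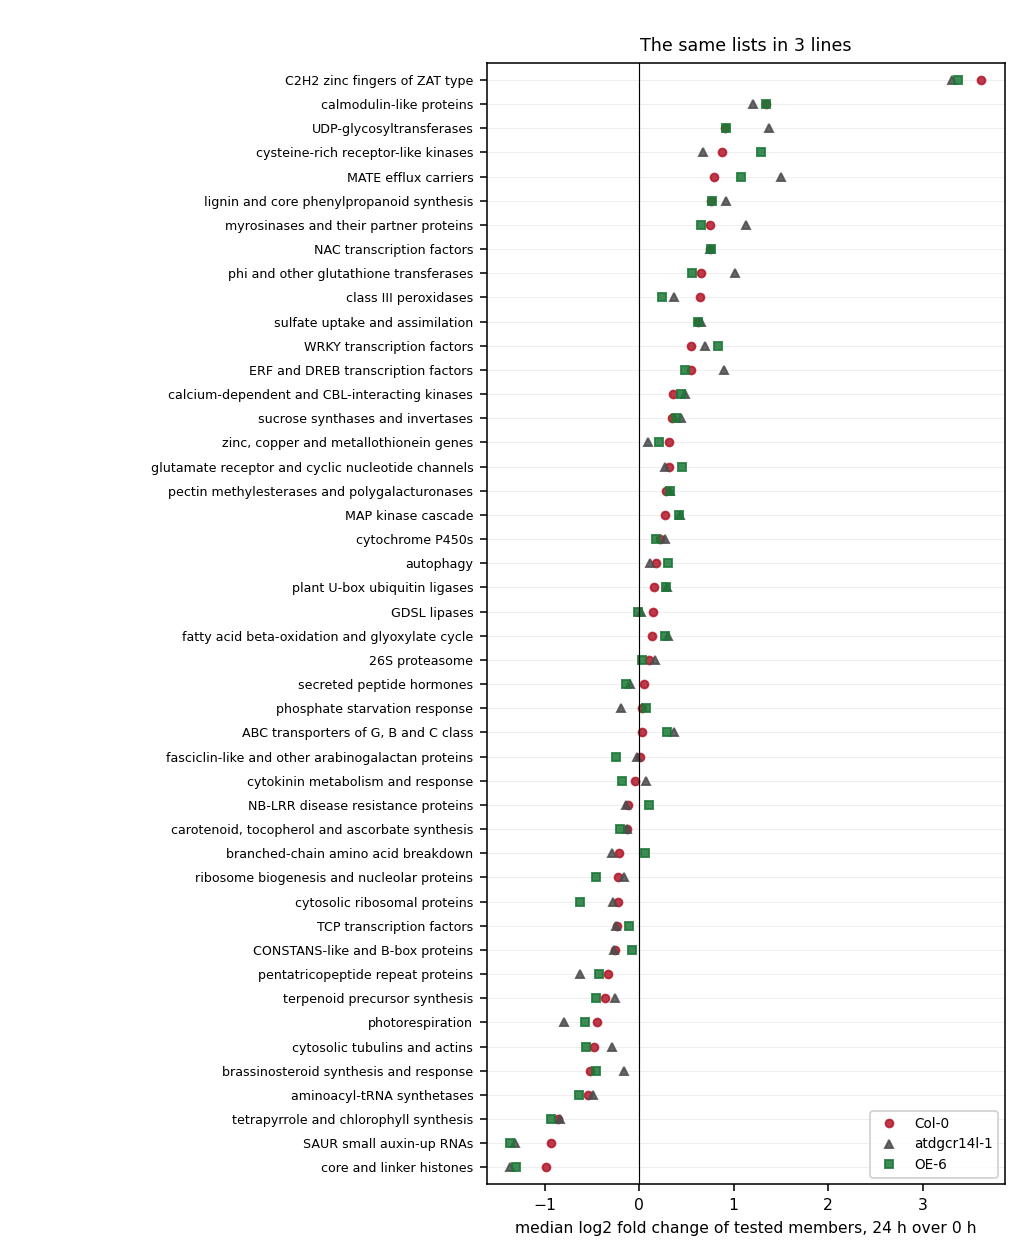
Median log2 fold change (24 h over 0 h, horizontal axis) of the tested members of each list, with one symbol for each of Col-0, atdgcr14l-1 and OE-6. ZAT zinc fingers are furthest right in all 3 lines, at 3.62 in Col-0, and for cytosolic ribosomal proteins the OE-6 symbol is at -0.62, left of -0.22 for Col-0.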

How the data were processed

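Polyadenylated RNA of 17 libraries was sequenced strand-specifically (dUTP, DNBSEQ), per the labels' protocols. The deposited values are estimated counts per gene, whole numbers and not scaled between libraries. The submitters' processing notes name StringTie 2.1.7, Bowtie2 2.4.5 and DESeq2, with no role. No build or strand setting of the counting is given in the sources used here, so overlapping genes may share reads.

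Genes were filtered with filterByExpr and scaled by TMM, and all 17 libraries in 6 groups were fitted with edgeR 4.0.16 (quasi-likelihood, R 4.3.3), with Benjamini-Hochberg adjustment over 21282 genes. The interaction contrasts came from the same fit. Errors of log2 fold changes are standard errors. The procedure was tested on simulated data with far fewer changed genes than were called here. That run did not test the scaling where so many genes change. Members, lists and the rule for named genes (the 10 largest CPM gains and losses among called genes whose Col-0 groups do not overlap; per list up to 3 such rises and 3 such falls of at least 5 CPM and the member of highest CPM) were chosen with earlier results of these data known. Alternatives were relative log expression scaling, no filter, a filter at 5 CPM, organelle genes left out, only Col-0 libraries, DESeq2 1.42.0, a replicate block and each Col-0 library left out.

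Of 27655 gene IDs, 27445 matched a RefSeq TAIR10.1 locus tag, from which names, coordinates and sequences come. Promoters were read from that genome after the data had been seen. At 53058673 to 56464259 counts per library, 3 counts equal 0.0519 to 0.0582 CPM in the Col-0 libraries, which covers counting error only.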

Additional observations from a re-analysis of the deposited data

Results flagged for a closer look

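The change of HEI10 (AT1G53490, chr1:19963267-19966952, plus strand, TAIR10.1) from 0 h to 24 h differed between Col-0 and atdgcr14l-1 in the test of the difference itself. HEI10 had 2.63, 2.13 and 2.31 CPM in Col-0 at 24 h, against 8.60 and 8.25 CPM in Col-0 at 0 h. In atdgcr14l-1 it had 11.3, 10.4 and 11.5 CPM at 24 h, against 8.14, 8.94 and 8.82 CPM at 0 h. In OE-6 it had 2.44, 1.54 and 1.60 CPM at 24 h, against 1.53, 2.38 and 1.46 CPM at 0 h. The Col-0 change minus the atdgcr14l-1 change was -2.20 ± 0.28 on the log2 scale (edgeR, adjusted p = 0.0262), and its adjusted p ran from 9.45e-11 to 0.153 over the alternatives. It was lost without Col-0 0 h replicate 1 (0.0671), 0 h replicate 2 (0.137), 24 h replicate 2 (0.0817) and 24 h replicate 3 (0.153), and with a replicate block (0.135).

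The neighbour MRD1 (AT1G53480, chr1:19963047-19964712, minus strand) overlaps HEI10 on the opposite strand, so reads of one may have been counted for the other. It was named after its values were seen. MRD1 had 1.99, 0.0346 and 0.368 CPM in Col-0 at 24 h, against 34.5 and 40.3 CPM in Col-0 at 0 h. In atdgcr14l-1 it had 43.8, 44.7 and 49.4 CPM at 24 h, against 35.8, 32.4 and 36.6 CPM at 0 h, and in OE-6 it stayed between 0.0379 and 0.332 CPM in all 6 libraries. The 24 h libraries of Col-0 were nearer to those of OE-6, and the 0 h libraries of Col-0 nearer to those of atdgcr14l-1. OE-6 was already at these low levels at 0 h. Whether the Col-0 change at this locus comes from salt or from another difference between the libraries of the 2 times was not tested. The Col-0 change minus the atdgcr14l-1 change was -5.95 ± 0.85 (edgeR, adjusted p = 0.105).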

How the results depend on the processing

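Of the genes named, none changed sign among calls under any alternative. Counts of genes that rose and fell were 5253 and 4716 with relative log expression scaling, 5246 and 4416 with no filter, 4619 and 3989 with the filter at 5 CPM, 5388 and 4533 without organelle genes, 6090 and 5384 with only Col-0 libraries and 5521 and 4916 with DESeq2. They ran from 3668 to 4873 rises and 3180 to 4058 falls with each Col-0 library left out, lowest without 0 h replicate 2. Rises of at least 2-fold ran from 1948 to 2329 and falls of at least 2-fold from 1250 to 1463 in those fits. With the filter at 5 CPM they were 1662 and 1030. With a replicate block there were 5066 rises and 4321 falls, and 2342 and 1433 of at least 2-fold. Libraries with the same number did not deviate together (Pearson correlations of -0.00451 and 0.0691), so the numbers were not taken as pairs. The test of the Col-0 change minus the atdgcr14l-1 change called 123 genes with DESeq2, 0 with the replicate block and 0 to 4 with a Col-0 library left out, and that against OE-6 called 8 with DESeq2 and 0 to 2 with a library left out; the cause was not tested. The naming rule, the markers and genes picked after their values were seen gave 367 tested genes, not all described here. Among these, 18 to 25 calls were lost without a 24 h library, and more without either 0 h library. With 2 libraries at 0 h, small fold changes are those the data resolve least.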

Other observations

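Some of the largest changes lay in genes that belong to none of the lists and were named here after their values were seen. NATA1, an acetyltransferase that makes N-acetylornithine, a jasmonate-inducible defence compound, had 333, 173 and 188 CPM at 24 h, against 0.518 and 0.0194 CPM at 0 h (log2 fold change 9.71 ± 0.83, adjusted p = 1.35e-06). TAT3, a tyrosine aminotransferase, had 178, 181 and 169 CPM at 24 h, against 0.241 and 0.0776 CPM at 0 h (log2 fold change 10.08 ± 1.99, adjusted p = 0.00125). ELI3-2, an alcohol dehydrogenase first known from pathogen elicitors, had 124, 54.2 and 84.0 CPM at 24 h, against 0 and 0.0388 CPM at 0 h (log2 fold change 12.01 ± 1.11). FAMT, a methyltransferase of farnesoic acid, had 98.5, 92.2 and 62.9 CPM at 24 h, against 0.722 and 0.311 CPM at 0 h (log2 fold change 7.34 ± 1.52, adjusted p = 0.00169). All 4 were under 1 CPM in both 0 h libraries and above 10 CPM in every 24 h library.

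Falls outside the lists included growth regulators and sugar-regulated genes. HBI1, a helix-loop-helix factor that promotes elongation, had 17.8, 20.5 and 19.1 CPM at 24 h, against 128 and 151 CPM at 0 h (log2 fold change -2.87 ± 0.16, adjusted p = 2.46e-08). HAT1, a homeodomain factor of shade and brassinosteroid responses, had 5.95, 4.51 and 4.48 CPM at 24 h, against 37.3 and 37.3 CPM at 0 h (log2 fold change -2.90 ± 0.24, adjusted p = 5.21e-07). BXL1, a beta-xylosidase that trims cell wall polymers, had 10.9, 16.6 and 12.1 CPM at 24 h, against 119 and 131 CPM at 0 h (log2 fold change -3.24 ± 0.29, adjusted p = 1.49e-06). DIN10, a raffinose synthase family gene known to rise in darkness and sugar starvation, had 22.4, 20.1 and 29.1 CPM at 24 h, against 175 and 200.3 CPM at 0 h (log2 fold change -2.97 ± 0.18, adjusted p = 4.37e-08). MSRB6, a methionine sulfoxide reductase, had 10.4, 12.5 and 7.41 CPM at 24 h, against 73.9 and 84.3 CPM at 0 h (log2 fold change -2.97 ± 0.29). No 24 h library reached the lower 0 h library in any of the 5.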
